A study of Arabidopsis thaliana with 24 samples.

Results

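Genes that loosen and build the plant cell wall were followed through the first minutes of light in dark-grown seedlings of Arabidopsis thaliana. They were chosen by name, as every probe set with exactly 1 gene in the platform annotation whose symbol, after an optional AT, began with EXPA, EXPB, EXLA, EXLB, XTH, XTR, FLA, AGP, PME, CSL, CESA or IRX followed by a number or by a letter and a number. Of 22217 probe sets, 13171 had exactly 1 gene (13043 genes in all), and 38 met this rule and named 38 loci. They comprised 10 α-expansins (EXPA), 4 β-expansins (EXPB), 3 expansin-like A genes (EXLA), 1 expansin-like B gene (EXLB1), 9 xyloglucan endotransglucosylase/hydrolases (XTH), 1 pectin methylesterase (PME61), 8 cellulose synthase-like genes (CSL) and the pair IRX15 and IRX15-L. No probe set with 1 gene met the rule through XTR, FLA, AGP or CESA, so 8 of the 12 name prefixes are represented.

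A growing plant cell is held in by cellulose microfibrils that are tethered by xyloglucan and embedded in pectin. Expansins loosen that wall without cutting its polymers, XTH enzymes cut xyloglucan chains and rejoin or hydrolyse them, pectin methylesterases remove methyl groups from pectin, and CSL enzymes make the backbones of non-cellulosic polysaccharides. In darkness the hypocotyl elongates quickly, and on the first exposure to light its elongation slows while the cotyledons open and expand.

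Seedlings of the Col-0 accession grew for 4 days in darkness at 22 °C and were then given 0, 30 or 120 min of light (120 µmol m-2 s-1). All had received 2 hours of light before the dark period. The 4 genotypes were wild type (wt), the ferrochelatase mutants fc2-1 (here fc2) and fc1-1 (fc1), and flu, which lacks a negative regulator of tetrapyrrole synthesis and in the dark is known to accumulate a pigment that gives singlet oxygen in light. RNA came from whole seedlings, so organs are mixed, and fewer cells of a type and less RNA per cell cannot be told apart. Each of the 12 genotype and time groups held 2 arrays named as biological replicates. Nothing more is said of their origin, so the p-values reflect how far these arrays spread, which may be technical.

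Values are log2 signals, and each change is the difference between 2 group means with the SE given by limma, fitted over all probe sets and 24 arrays (n = 2 per group), with p-values adjusted over all probe sets of a comparison. A probe set with an adjusted p under 0.05 is referred to as called, and only called members are said to rise or fall. Array medians lay between 5.98 and 6.23, and replicate arrays correlated at 0.9907 to 0.9986 across probe sets. Replicates of a member differed by a median of 0.14 over 456 member and group pairs, and by over 0.5 in 17 of them, at most by 0.85 for EXPA16 in flu at 30 min. The arrays also differed in seed-maturation transcripts: the mean log2 signal of M10, M17, PAP85 and OLEO3 ran from 5.50 to 8.79 in wt, 5.58 to 7.95 in fc2, 7.61 to 9.62 in flu and 5.28 to 8.83 in fc1, and the 2 wt arrays at 120 min held 5.50 and 7.88. The light-induced gene GI rose in all 4 genotypes at 120 min (by 2.04 to 2.45), whereas HYH rose in wt, fc2 and fc1 but fell in flu (-0.96 ± 0.20, limma adjusted p = 0.000437). No probe set named FC1, FC2 or FLU alone in the annotation used, so the genotypes were not checked on those genes.

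Light lowered more of the wall genes than it raised in wt, and the falls came first. After 30 min 8 members had fallen and 0 had risen, against 6.41% of all probe sets called (3.57% higher, 2.84% lower). Those that fell were XTH19, XTH33, XTH16, CSLC04, EXLA2, EXPB1, EXLA1 and EXPA8. After 120 min 4 members had risen and 11 had fallen, 39.5% of the 38, against 30.7% of all probe sets called (11.9% higher, 18.8% lower). The median change of the members was -0.16 at 30 min and -0.08 at 120 min, beside -0.02 and -0.03 over all probe sets.

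The 30 min count depended on single arrays. It was 5 without wt dark replicate 1, 4 without wt dark replicate 2 and 4 without wt 30 min replicate 2, and CSLC04, XTH16, XTH19 and XTH33 were called without each array in turn. At 120 min 9 of the 15 calls held without each array in turn, namely XTH32, EXPA15, EXPB3, CSLC04, EXLA1, EXPA8, EXPA9, XTH19 and XTH33. Scaling each array to a pair of reference genes raised the median of all probe sets at 120 min from -0.03 to 0.18 and gave 5 higher and 7 lower members, with 0 reversals of sign and with EXLA3, EXLB1, EXPA4 and XTH20 no longer called.

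The counts of the mutants against their own dark arrays ranged widely. In fc1 there were 1 higher and 7 lower at 30 min (7.22% of all probe sets called, 3.68% higher and 3.55% lower) and 4 higher and 13 lower at 120 min (34.4%, with 15.3% higher and 19.1% lower). In fc2, 0 rose and 5 fell at 30 min (3.02%, with 1.92% higher and 1.1% lower), and 1 rose and 13 fell at 120 min (24.8%, with 10.8% higher and 14.0% lower). In flu the response was broad at both times, with 10 higher and 14 lower at 30 min (48.1%, with 24.2% higher and 23.8% lower) and 6 higher and 15 lower at 120 min (46.1%, with 24.3% higher and 21.9% lower). The share of members called in flu, 55.3% at 120 min, thus stood beside a change in nearly as large a share of all probe sets.

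Among these counts, that of fc2 at 30 min fell to 0 without fc2 dark replicate 1, fc2 dark replicate 2 or fc2 30 min replicate 2, and to 3 without fc2 30 min replicate 1. For fc1 at 30 min it fell to 5, 4 and 5 without fc1 dark replicate 2, fc1 30 min replicate 1 and fc1 30 min replicate 2. Reference-gene scaling shifted the splits at 120 min to 7 higher and 8 lower in fc1 and to 9 higher and 14 lower in flu, and that at 30 min in flu to 16 higher and 14 lower. No called member changed sign under it. The reference gene AT2G28390 was itself called lower in flu at 30 min (-0.39 ± 0.10) and 120 min (-0.26 ± 0.10). It was also called lower in fc1 at 120 min (-0.37 ± 0.10), so the scaling is not neutral in these comparisons.

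**Figure D1:**
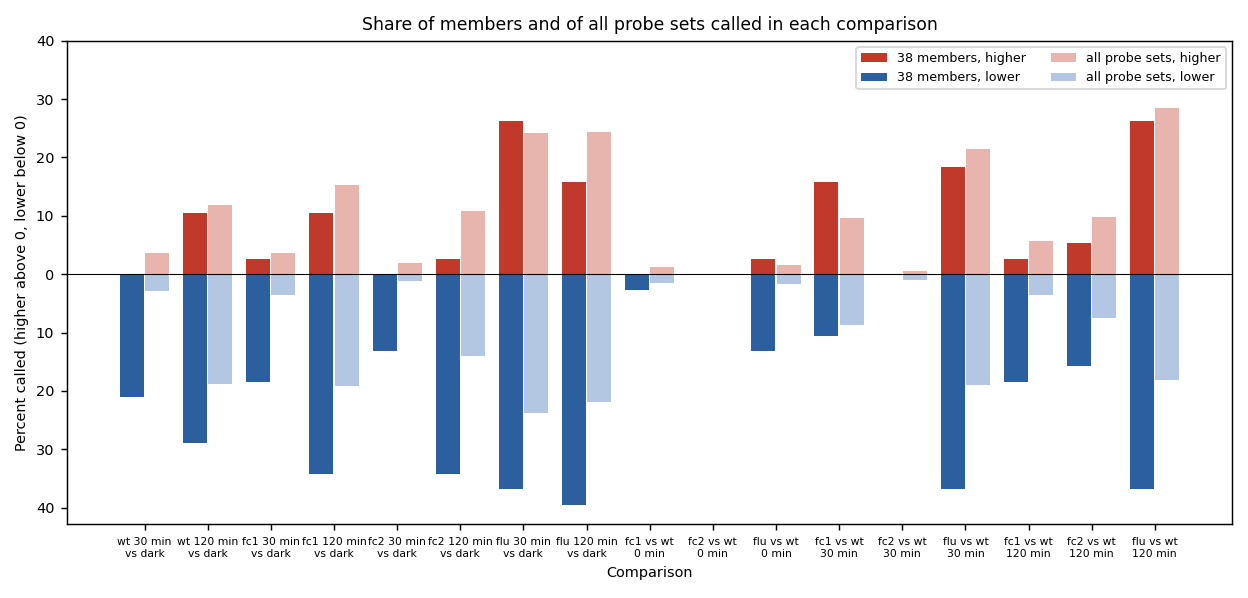
Percent called in each comparison (y axis, higher above 0 and lower below 0), for the 38 wall genes (dark bars) and all 22217 probe sets (pale bars). The x axis lists the light responses of each genotype and then each mutant against wt at the same time. In wt at 30 min the wall genes have a lower bar of 21.1% and no higher bar, and the bars of flu are tall for the wall genes and for all probe sets alike.

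**Figure D2:**
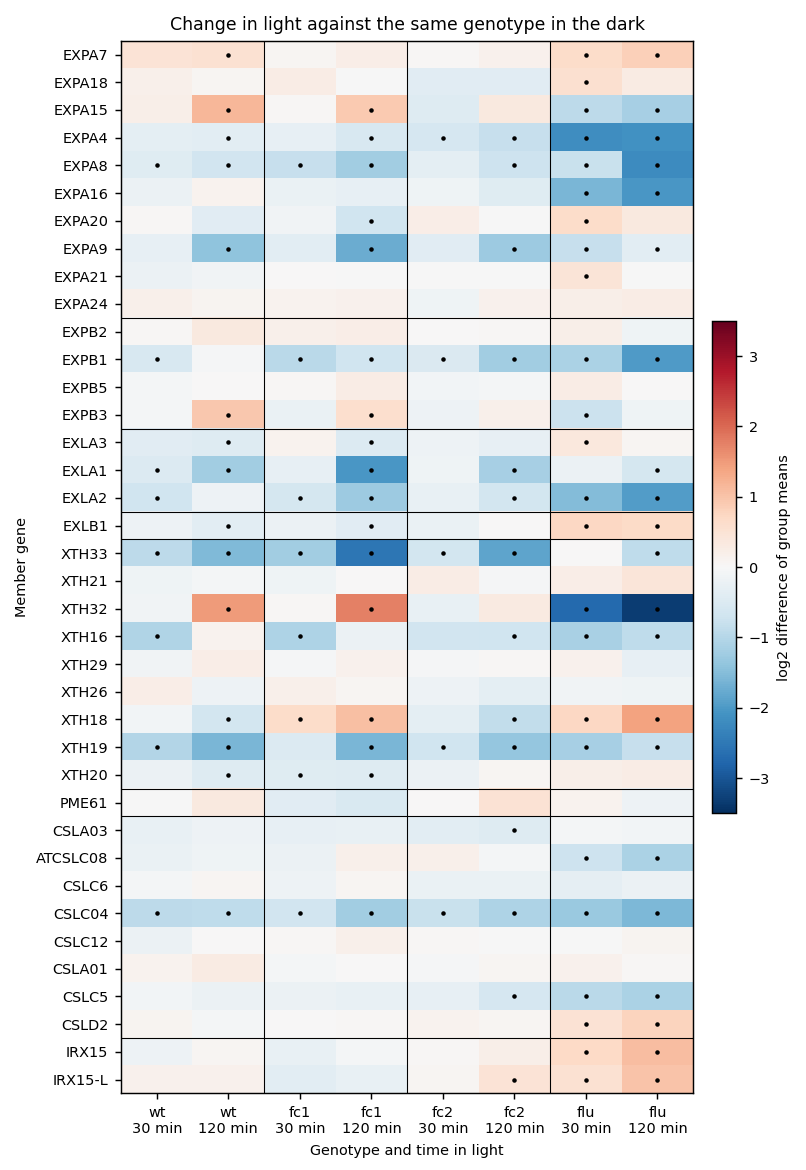
Log2 change of every member against the dark arrays of its own genotype at 30 and 120 min of light, grouped by family. Colour gives the size and direction of the change, and marked cells are called. A block of falls is shared by the genotypes, whereas XTH32, EXPA15 and XTH18 differ in colour between wt and flu.

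Of the 10 α-expansins, 2 rose and 3 fell in wt at 120 min, beside 11.9% of all probe sets called higher and 18.8% lower. EXPA15 (AT2G03090) gave 6.85 and 7.0 in the dark, 7.37 and 6.90 at 30 min and 7.92 and 8.24 at 120 min in wt. Both 120 min arrays lay above all 4 earlier ones, a rise of 1.16 ± 0.15 or 2.23-fold (limma adjusted p = 8.67e-06). In fc1 it went from 6.50 and 6.50 to 7.48 and 7.33 at 120 min, a rise of 0.91 ± 0.15. In fc2 the same steps were 7.06 and 7.12 to 7.30 and 7.53, and the change of 0.33 was not called. In flu it ran the other way, from 7.57 and 7.40 in the dark to 6.39 and 6.75 at 30 min and 6.35 and 6.32 at 120 min, a fall of -1.15 ± 0.15 (adjusted p = 3.43e-06). The light response at 120 min was lower than that of wt by -2.31 ± 0.21 in flu (adjusted p = 8.89e-08) and by -0.83 ± 0.21 in fc2 (adjusted p = 0.0175). The fc2 difference was not called without wt dark replicate 1, fc2 dark replicate 2, wt 120 min replicate 2 or fc2 120 min replicate 1, where it was -0.75, -0.80, -0.67 and -0.71.

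The other riser, EXPA7 (AT1G12560), is a root hair expansin and was dim. Its wt arrays read 4.88 and 4.58 in the dark and 4.99 and 5.55 at 120 min, which do not overlap but come close (0.54 ± 0.19, adjusted p = 0.0385). That call did not hold without each array in turn. It rose in flu at 30 min (0.63 ± 0.19) and at 120 min (0.84 ± 0.19), from 5.38 and 4.98 to 5.83 and 6.21. EXPA18, the other root hair expansin, was called higher in flu at 30 min alone of the 8 light comparisons (0.56 ± 0.22), and that call was lost with the seed-maturation mean as a covariate. These members are the 2 measured of 5 root hair markers listed, with a joint mean of 4.70 to 5.36 over the wt arrays and 4.94 to 5.93 over the flu arrays.

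The α-expansins that fell were among the brighter members. EXPA9 (AT5G02260) dropped in wt from 10.29 and 10.21 through 10.11 and 9.80 to 8.80 and 8.89, so that both 120 min arrays lay below every earlier array (-1.41 ± 0.13, 2.65-fold, adjusted p = 1.44e-07). The falls at 120 min were -1.28 ± 0.13 in fc2 and -1.75 ± 0.13 in fc1. In flu the course differed: 9.70 and 9.80 in the dark, 8.78 and 9.08 at 30 min, and 9.34 and 9.44 at 120 min. The early fall there was -0.82 ± 0.13 and the remaining fall at 120 min only -0.36 ± 0.13 (adjusted p = 0.0303), a call lost after reference-gene scaling and without some array. The response at 120 min was 1.04 ± 0.18 higher than that of wt (adjusted p = 0.000159).

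EXPA8 (AT2G40610) and EXPA4 (AT2G39700) fell in every genotype at 120 min. For EXPA8 the wt arrays were 10.42 and 10.38 in the dark and 9.92 and 9.57 at 120 min (-0.66 ± 0.12), and the flu arrays 10.34 and 10.35 and then 8.15 and 8.17. The dark levels were thus alike and the flu fall of -2.19 ± 0.12, or 4.55-fold, was the deepest of the 4 genotypes (-0.73 ± 0.12 in fc2, -1.23 ± 0.12 in fc1). EXPA4 behaved differently in time. In flu it had dropped from 10.23 and 10.10 to 7.89 and 8.08 within 30 min and stood at 8.26 and 7.85 at 120 min, whereas the wt arrays read 10.03 and 9.80, 9.59 and 9.58, and 9.49 and 9.62. At 30 min the response in flu was lower than in wt by -1.85 ± 0.17 (adjusted p = 8.44e-07). The wt fall of EXPA4 at 120 min (-0.36 ± 0.12, adjusted p = 0.0323) was no longer called after reference-gene scaling, with the seed-maturation covariate or without some array, and its fall in fc1 (-0.57) was not called after that scaling.

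EXPA16 (AT3G55500) fell in flu alone of the 4 genotypes at 120 min. Its flu arrays were 6.04 and 6.35 in the dark, 5.03 and 4.18 at 30 min and 3.84 and 4.47 at 120 min, all 4 light arrays below both dark ones although the replicates lay far apart. Its wt arrays read 6.74 and 6.45, 6.32 and 6.45, and 6.59 and 6.82. The change in flu was -2.04 ± 0.23 at 120 min, and the response differed from that of wt by -1.38 ± 0.32 at 30 min (adjusted p = 0.00336) and by -2.15 ± 0.32 at 120 min (adjusted p = 2.62e-05). EXPA20 gave mixed results: it rose in flu at 30 min (0.63 ± 0.20) and fell in fc1 at 120 min (-0.70 ± 0.20), and both calls failed without some array.

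EXPB3 (AT4G28250) read 6.48 and 6.35, 6.53 and 6.15, and 7.33 and 7.41 in wt, so it rose only between 30 and 120 min (0.95 ± 0.16 against the dark, adjusted p = 0.000112). It rose in fc1 too (5.82 and 5.69 to 6.17 and 6.52, 0.59 ± 0.16), but this call failed without some array, and in fc2 the arrays at 120 min (6.37 and 6.77) overlapped those in the dark (6.44 and 6.35). In flu it fell at 30 min from 5.93 and 5.52 to 5.03 and 4.90 (-0.76 ± 0.16) and was back at 5.55 and 5.60 at 120 min. At 120 min EXPB3 was lower than in wt in every mutant, by -0.80 in fc2, -1.79 in flu and -1.02 in fc1. Its dark means were already lower in flu (5.72) and fc1 (5.76) than in wt (6.42), dark calls that failed without some array. The light response of EXPB3 in fc1 at 120 min was not called as different from that of wt.

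EXPB1 (AT2G20750) fell in all genotypes at 30 min and stood at its dark level in wt at 120 min. Its wt arrays were 7.21 and 7.30, 6.74 and 6.62, and 7.20 and 7.24. The drop was -0.57 ± 0.13 (adjusted p = 0.00881), and the 120 min arrays overlapped the dark ones. In fc2 there was no return: 7.31 and 7.40, 6.94 and 6.75, then 6.09 and 6.21 (-1.21 ± 0.13 at 120 min, adjusted p = 1.17e-06). In flu the fall went deeper, from 7.43 and 7.24 to 5.24 and 5.47 (-1.98 ± 0.13), and in fc1 the arrays at 120 min were 6.11 and 6.54 against 7.01 and 7.06 in the dark. The response at 120 min in fc2 was lower than that of wt by -1.17 ± 0.18 (adjusted p = 0.000361), a difference called without each array in turn.

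Of the 4 expansin-like genes, 0 rose and 3 fell in wt at 120 min, beside 11.9% of all probe sets called higher and 18.8% lower. EXLA1 (AT3G45970) fell steadily in wt from 8.58 and 8.67 through 8.17 and 8.14 to 7.45 and 7.37. The groups did not overlap at any step, and the fall at 120 min was -1.22 ± 0.11 (adjusted p = 1.65e-07). It was -1.16 ± 0.11 in fc2 and -0.62 ± 0.11 in flu. In fc1 EXLA1 ended at 6.82 and 7.08 from 8.84 and 9.12 (-2.03 ± 0.11), a response lower than that of wt by -0.81 ± 0.16 (adjusted p = 0.0153). EXLA3, its immediate neighbour on the chromosome with 0 protein-coding genes between them, was dim and fell by -0.45 ± 0.13 in wt and -0.47 ± 0.13 in fc1, and both calls failed without some array.

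EXLA2 (AT4G38400), whose overexpression is known to alter the growth of dark-grown hypocotyls, dipped in wt from 7.78 and 7.83 to 7.12 and 7.12 at 30 min and read 7.77 and 7.46 at 120 min. The dip was -0.69 ± 0.17 (adjusted p = 0.0151) and the 120 min change of -0.19 was not called. In flu EXLA2 fell from 7.55 and 7.93 in the dark to 6.51 and 5.92 at 30 min and read 5.82 and 5.77 at 120 min. The fall at 120 min was -1.95 ± 0.17, and the part of it after 30 min (-0.42 ± 0.17) was not called. In fc1 EXLA2 ended at 7.17 and 7.06 from 8.24 and 8.54 (-1.27 ± 0.17). For fc1 the difference from the wt response was -1.08 ± 0.23 (adjusted p = 0.0292). EXLB1 (AT4G17030) separated flu from the rest: the flu arrays rose from 6.75 and 6.76 to 7.50 and 7.47 at 30 min and 7.56 and 7.28 at 120 min, while those of wt went from 7.0 and 7.05 to 6.84 and 6.84 and to 6.67 and 6.66. The response in flu was higher than in wt by 0.91 ± 0.16 at 30 min (adjusted p = 0.000281) and by 1.02 ± 0.16 at 120 min (adjusted p = 3.51e-05).

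**Figure D3:**
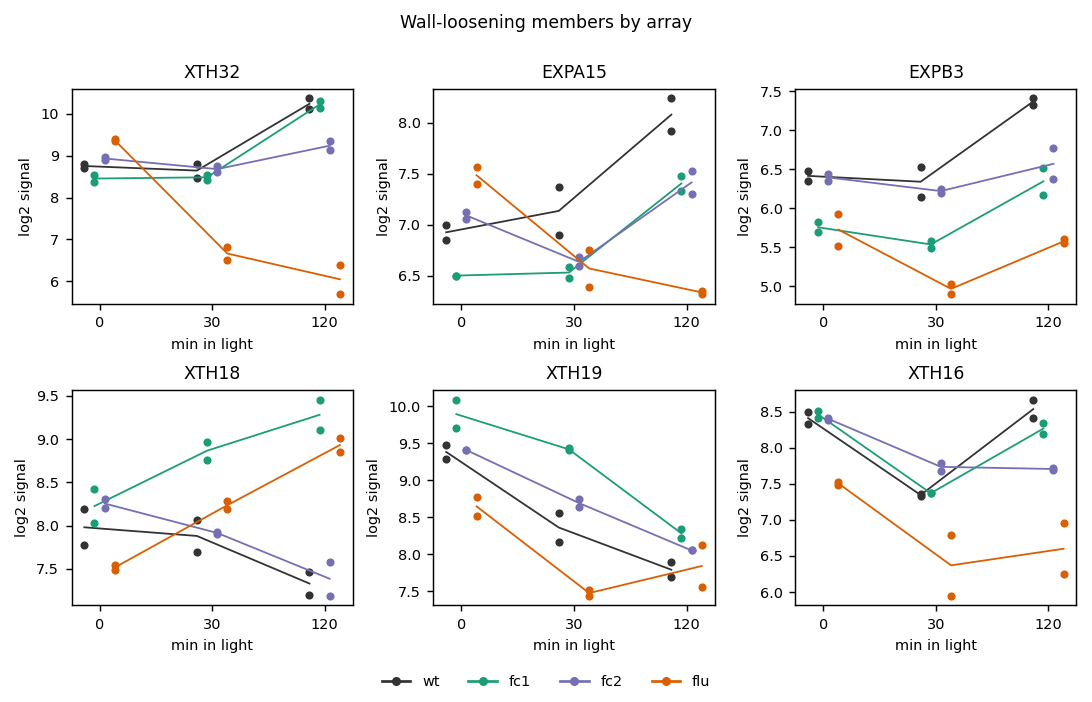
Log2 signal (y axis) of 6 wall-loosening members on each array, by minutes in light (x axis, times evenly spaced and points set apart by genotype). Points are arrays and lines join the group means of wt, fc1, fc2 and flu. XTH32 climbs to above 10 in wt and fc1 at 120 min and drops to 5.70 and 6.40 in flu, and XTH18 climbs in flu and fc1 while it falls in wt and fc2.

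XTH32 (AT2G36870) showed the largest difference in light response between genotypes of the 38 members. In wt its arrays read 8.71 and 8.80 in the dark, 8.81 and 8.48 at 30 min and 10.37 and 10.11 at 120 min, so the gain came after 30 min (1.49 ± 0.18 against the dark, 2.8-fold, adjusted p = 3.1e-06). In fc1 the course was nearly the same, 8.38 and 8.53, 8.43 and 8.54, and 10.31 and 10.14 (1.77 ± 0.18, adjusted p = 2.75e-07). The fc2 arrays reached only 9.14 and 9.34 from 8.89 and 8.98, and the change of 0.31 was not called. In flu the signal collapsed from 9.34 and 9.40 to 6.51 and 6.82 at 30 min and to 5.70 and 6.40 at 120 min. All 4 of these light arrays lay below every array of the other genotypes, and the fall was -2.71 ± 0.18 at 30 min (adjusted p = 2.89e-09) and -3.32 ± 0.18 or 9.99-fold at 120 min (adjusted p = 2.48e-11). The light response of XTH32 differed from that of wt by -2.60 ± 0.25 in flu at 30 min (adjusted p = 1.1e-06), by -4.80 ± 0.25 in flu at 120 min (adjusted p = 5.88e-11) and by -1.18 ± 0.25 in fc2 at 120 min (adjusted p = 0.00496). At 120 min its level in flu was 18.3-fold below that in wt.

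The adjacent genes XTH18 (AT4G30280) and XTH19 (AT4G30290), with 0 protein-coding genes between them, are known as root-expressed members of the family. They shared a fall in wt and parted in flu and fc1. XTH18 read 7.77 and 8.19 in the dark, 7.69 and 8.07 at 30 min and 7.46 and 7.20 at 120 min in wt (-0.65 ± 0.18, adjusted p = 0.00824). In fc2 it went from 8.31 and 8.20 to 7.19 and 7.58 (-0.87 ± 0.18). In flu it climbed from 7.49 and 7.54 through 8.28 and 8.19 to 8.85 and 9.01 (1.42 ± 0.18, adjusted p = 1.98e-06), and in fc1 from 8.03 and 8.42 through 8.97 and 8.76 to 9.11 and 9.45 (1.05 ± 0.18, adjusted p = 0.00011). The lowest light array of fc1 or flu, 8.19, was thus above the highest light array of wt or fc2, 8.07. The response at 120 min was higher than that of wt by 2.06 ± 0.25 in flu (adjusted p = 2.47e-06) and by 1.71 ± 0.25 in fc1 (adjusted p = 0.00102). Both differences were called without each array in turn.

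XTH19 fell in every genotype. The wt arrays were 9.28 and 9.48, 8.17 and 8.55, and 7.89 and 7.69, without overlap between times (-1.59 ± 0.17 at 120 min, 3.01-fold, adjusted p = 6.14e-07). The falls at 120 min were -1.35 ± 0.17 in fc2, -0.80 ± 0.17 in flu and -1.61 ± 0.17 in fc1. In fc1 the arrays read 9.70 and 10.08 in the dark, 9.40 and 9.43 at 30 min and 8.22 and 8.34 at 120 min. The change by 30 min was not called in fc1, and that from 30 to 120 min was -1.14 ± 0.17. At 30 min fc1 stood 1.05 ± 0.17 above wt (adjusted p = 0.00108). Its dark arrays already lay above both wt dark arrays, and its light response at 30 min was not called as different from that of wt.

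XTH33 (AT1G10550), an XTH anchored at the plasma membrane, also fell in all 4 genotypes. In wt it read 7.36 and 7.50, 6.59 and 6.46, and 5.84 and 5.94 (-0.91 ± 0.15 at 30 min, -1.54 ± 0.15 at 120 min). The deepest fall was that of fc1, from 7.74 and 7.61 to 6.47 and 6.44 and to 5.26 and 5.01 (-2.54 ± 0.15, 5.82-fold, adjusted p = 2.16e-10), lower than the wt response by -1.0 ± 0.21 (adjusted p = 0.0209). In flu the fall was delayed. Its arrays were 6.94 and 7.28 in the dark, 7.10 and 7.15 at 30 min and 6.06 and 6.37 at 120 min, so that the 30 min response was 0.92 ± 0.21 higher than that of wt (adjusted p = 0.00265).

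The fc1 differences of EXLA1, EXLA2 and XTH33 rest on few arrays. With XTH18 they were the 4 members whose response at 120 min differed between fc1 and wt, where 1.0% of all probe sets did (0.698% upward, 0.306% downward). The count was 1 without wt dark replicate 1 or fc1 dark replicate 2 and 2 without wt 120 min replicate 1 or fc1 120 min replicate 1, and only XTH18 was called without each array in turn. At 30 min 0 members differed in this way in fc1 (0.189% of all probe sets) or in fc2 (0.441%).

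XTH16 (AT3G23730) dipped and returned. It stood at 8.49 and 8.33 in the dark in wt, at 7.33 and 7.36 at 30 min and at 8.66 and 8.41 at 120 min. The dip was -1.06 ± 0.21 (adjusted p = 0.00279), and the 120 min arrays overlapped the dark ones. The fc1 arrays traced the same course, 8.51 and 8.41, 7.37 and 7.37, and 8.19 and 8.34. In fc2 they read 7.79 and 7.68 at 30 min and 7.69 and 7.72 at 120 min after 8.39 and 8.41 in the dark, and in flu they fell from a lower start of 7.49 and 7.52 to 5.95 and 6.79 and then 6.95 and 6.25. Among the other XTH genes, XTH20 fell slightly in wt (-0.44 ± 0.13) and in fc1 at both times, and none of these XTH20 light calls held without each array in turn. XTH21, XTH26 and XTH29 were in the dimmest 40% of probe sets and were called in 0 of the 8 light comparisons.

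The change from 30 to 120 min was computed after the dip and return of XTH16, EXPB1 and EXLA2 had been seen on the same arrays, so for these genes it gives the size of the return and is no independent test of it. In wt 6 members rose over this interval and 6 fell (27.4% of all probe sets called, 11.3% higher and 16.2% lower). Besides XTH32, EXPB3 and EXPA15, the risers were XTH16 (1.19 ± 0.21, adjusted p = 0.000297), EXPB1 (0.54 ± 0.13, adjusted p = 0.00402) and EXLA2 (0.49 ± 0.17, adjusted p = 0.0328). The EXLA2 rise was lost with the seed-maturation covariate and without some array. XTH16 rose again in fc1 (0.90 ± 0.21, adjusted p = 0.00325), whereas EXPB1 fell further in fc2 (-0.70) and in flu (-0.87). With reference-gene scaling the split in wt became 14 higher and 2 lower, with a median of all probe sets of 0.28.

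The pectin methylesterase PME61 (AT3G59010) was called in 0 of the 8 light comparisons. Its wt arrays at 120 min, 7.13 and 6.45, lay further apart than its group means moved against the dark in wt or flu (0.33 ± 0.22 and -0.17 ± 0.22). It was lower in flu than in wt at 120 min, with 5.99 and 5.48 below both wt arrays (-1.05 ± 0.22, adjusted p = 0.000597), but the flu arrays were also the lowest in the dark (5.73 and 6.09 against 6.47 and 6.46), and its light response was not called as different from that of wt.

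Among the 10 members that make polysaccharides, 0 rose and 1 fell in wt at 120 min. The member that fell was CSLC04 (AT3G28180), which makes the glucan backbone of xyloglucan. It dropped in wt from 9.19 and 9.32 to 8.28 and 8.39 within 30 min and stood at 8.65 and 8.08 at 120 min, with all light arrays below both dark arrays (-0.92 ± 0.16 and -0.89 ± 0.16). It fell in every genotype at both times. At 120 min the flu arrays were the lowest, at 7.68 and 7.50 from 9.13 and 9.21, a fall of -1.58 ± 0.16. The response in flu was lower than that of wt by -0.69 ± 0.23 (adjusted p = 0.022), and this was not called without wt dark replicate 1, flu dark replicate 2, wt 120 min replicate 1 or flu 120 min replicate 2 (-0.63, -0.65, -0.40 and -0.60).

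All 5 genes of the CSLC family of Arabidopsis were measured, and 3 of them fell in flu at 120 min. Of all probe sets, 21.9% were called lower in that comparison. CSLC5 (AT4G31590) read 8.92 and 8.79 in the dark, 7.97 and 7.85 at 30 min and 7.74 and 7.76 at 120 min in flu, and its wt arrays never left the range of 8.71 to 8.97. Its response in flu was lower than that of wt by -0.89 ± 0.15 (adjusted p = 8.73e-05), and it also fell in fc2 at 120 min (-0.58 ± 0.11). ATCSLC08 (AT2G24630) fell in flu from 5.69 and 5.93 to 5.06 and 5.09 and to 4.77 and 4.63, below all 6 wt arrays (5.46 to 5.87), with a difference from the wt response of -0.96 ± 0.20 at 120 min (adjusted p = 0.000769). CSLC6 and the dim CSLC12 were called in 0 of the 8 light comparisons. Of the CSLA genes, from a family that makes mannan backbones, CSLA03 fell in fc2 at 120 min (-0.46) and CSLA01 was not called.

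Another 3 synthesis members rose in flu, where 24.3% of all probe sets were called higher at 120 min. CSLD2 (AT5G16910), known for its part in root hair growth, went from 8.31 and 8.18 to 8.65 and 8.87 and to 9.02 and 9.04 in flu, above the highest of all arrays of the other genotypes (8.58) at every light array. Its response at 120 min was 0.86 ± 0.18 higher than that of wt (adjusted p = 0.000655). IRX15 (AT3G50220) and IRX15-L (AT5G67210), paralogs that act in the synthesis of xylan, a polysaccharide of secondary walls, rose together. IRX15 read 5.73 and 5.35 in the dark, 5.98 and 6.51 at 30 min and 6.42 and 6.84 at 120 min in flu, and all wt arrays lay between 5.28 and 5.61. The rise was 1.09 ± 0.16 at 120 min, and the response differed from that of wt by 0.89 ± 0.23 at 30 min (adjusted p = 0.00725) and 1.03 ± 0.23 at 120 min (adjusted p = 0.00137). IRX15-L climbed in flu from 5.65 and 5.90 to 6.13 and 6.46 and to 6.93 and 6.62, a rise of 1.00 ± 0.14 that was 0.85 ± 0.20 above the response of wt (adjusted p = 0.00199). It rose in fc2 as well, from 5.84 and 5.78 to 6.28 and 6.31 at 120 min (0.48 ± 0.14), a call that failed without some array.

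**Figure D4:**
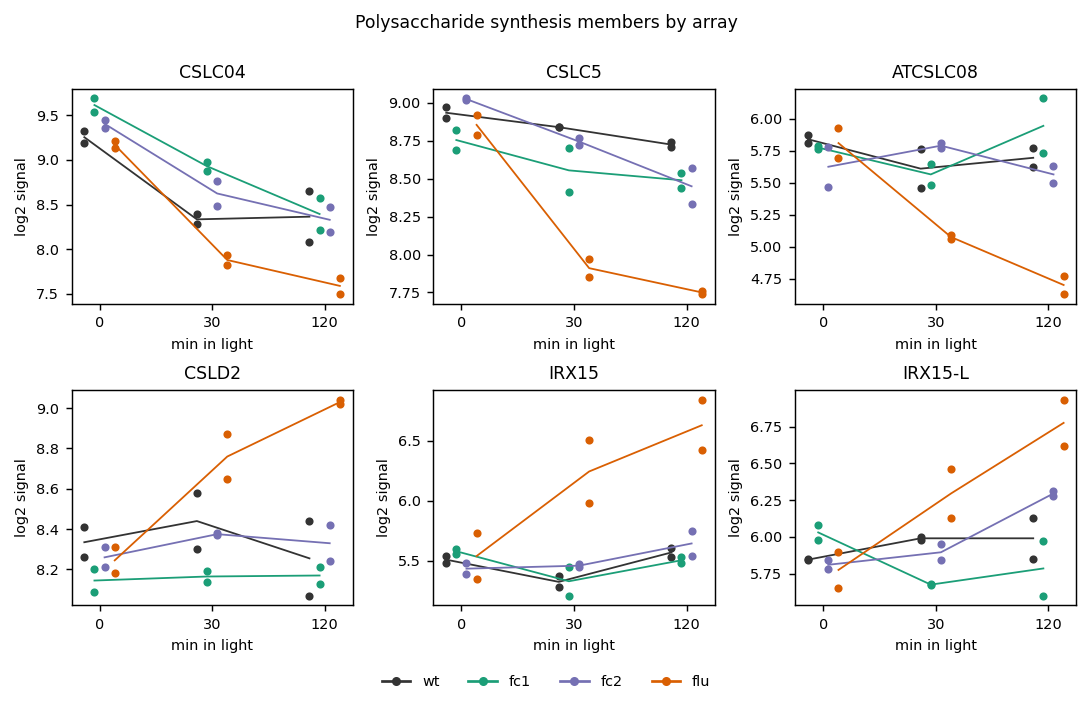
Log2 signal (y axis, its range set per gene) of 6 polysaccharide synthesis members on each array, by minutes in light (x axis, times evenly spaced and points set apart by genotype). Points are arrays and lines join group means. In flu the 3 CSLC genes in the upper panels end below all wt arrays of their own panel at 120 min, while CSLD2, IRX15 and IRX15-L in the lower panels end above all wt arrays.

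Over all 38 members, the response of flu differed from that of wt for 6 members upward and 9 downward at 30 min (27.9% of all probe sets called, 13.9% upward and 14.0% downward) and for 12 upward and 12 downward at 120 min (38.3%, with 23.0% upward and 15.3% downward). The largest differences were downward, in wall loosening: XTH32, EXPA15 and EXPA16 at 120 min and XTH32, EXPA4 and EXPA16 at 30 min. With reference-gene scaling the 30 min split became 15 upward and 5 downward, the median of all probe sets moving from 0.06 to 0.40, and the 120 min split became 10 and 12. Both directions ran side by side in flu at 120 min against its own dark arrays. The 15 that fell were 12 genes of the expansin, expansin-like and XTH families and 3 CSLC genes. The 6 that rose were XTH18, EXLB1, EXPA7, CSLD2, IRX15 and IRX15-L.

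**Figure D5:**
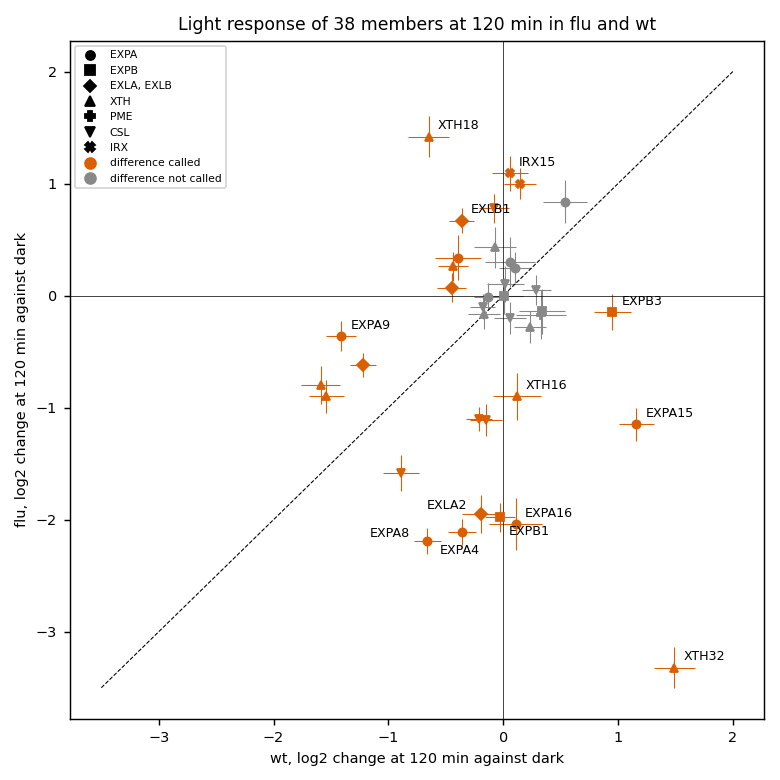
Log2 change at 120 min against the dark in wt (x axis) and in flu (y axis) for the 38 members, with bars of 1 SE from limma. Marker shape gives the family, orange marks a called difference between the responses, and the dashed line is equality. XTH32 lies far below the line at 1.49 in wt and -3.32 in flu, and XTH18 far above it at -0.65 and 1.42.

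For fc2 4 members differed from wt in their response at 120 min, all downward (9.21% of all probe sets called, 4.76% upward and 4.45% downward): XTH32, EXPB1, EXPA15 and EXPB3. The EXPB3 call was lost with the seed-maturation covariate, and the count was 2 without wt dark replicate 1, fc2 dark replicate 2, wt 120 min replicate 2 or fc2 120 min replicate 1. Compared with wt at the same time, fc2 had 0 called members in the dark (0.036% of all probe sets, 0.018% in each direction) and 0 at 30 min (1.52%, with 0.531% higher and 0.986% lower), and 2 higher and 6 lower at 120 min (17.2%, with 9.71% higher and 7.53% lower). That last count was 5, 4, 5 and 4 without wt replicate 1, wt replicate 2, fc2 replicate 1 and fc2 replicate 2 of that time, and EXPB1 (-1.07 ± 0.13), XTH32 (-1.0 ± 0.18) and EXPB3 were called without each. With reference-gene scaling it became 0 higher and 8 lower. The small differences of EXLB1 and XTH20, called higher in fc2, were then lost.

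In the dark the flu seedlings already differed from wt in 6 members, 1 higher and 5 lower (3.32% of all probe sets called, 1.62% higher and 1.7% lower). XTH20 was lower by -0.69 ± 0.13 (4.48 and 4.48 against 5.12 and 5.23), XTH16 by -0.90 ± 0.21, XTH19 by -0.74 ± 0.17, EXPB3 by -0.69 ± 0.16 and EXPA9 by -0.50 ± 0.13, and EXPA15 was higher by 0.56 ± 0.15. The count was 1 without wt dark replicate 1, 0 without wt dark replicate 2 and 2 without flu dark replicate 1 or 2, and EXPA15 was lost after reference-gene scaling. The dark flu arrays had seed-maturation means of 8.71 and 8.48, above those of wt (8.14 and 7.36), and with that mean as a covariate EXPA15 and EXPA9 were not called. The genes in that mean did not differ alike: PAP85 by 3.06, M17 by 0.71, M10 by 0.07 and OLEO3 by -0.45, none of them called. In fc1 the only call in the dark was EXPB3 (-0.66 ± 0.16, adjusted p = 0.0358; 2.74% of all probe sets called, 1.31% higher and 1.43% lower), and it was lost without any of the 4 arrays in turn.

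Set against wt at the same time in light, flu had 7 higher and 14 lower members at 30 min (40.4% of all probe sets called, 21.4% higher and 19.0% lower) and 10 higher and 14 lower at 120 min (46.6%, with 28.4% higher and 18.2% lower). Reference-gene scaling turned the 30 min split to 19 higher and 9 lower, so the direction of the whole set at that time depended on it. The reference gene AT2G28390 was itself called lower in flu than in wt at 30 min (-0.57 ± 0.10, limma adjusted p = 0.000248). That scaling is therefore not neutral in this comparison. For fc1 6 were higher and 4 lower at 30 min (18.4%, with 9.68% higher and 8.73% lower), among them XTH19 and XTH18 (0.99 ± 0.18) as the most raised, of which XTH19 alone of the 10 calls held without each array in turn, and 1 was higher and 7 were lower at 120 min (9.25%, with 5.71% higher and 3.54% lower). The fc1 count at 30 min was 1 without wt 30 min replicate 1 and 4 without fc1 30 min replicate 2. At 120 min it was 4 without wt 120 min replicate 2, 5 without fc1 120 min replicate 2 and 15 after reference-gene scaling, and XTH18, EXPA8, EXPB1 and EXPB3 were called without each array.

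Across genotypes, 7 members fell in all 4 at 120 min: CSLC04, EXLA1, EXPA4, EXPA8, EXPA9, XTH19 and XTH33. Of all probe sets, 18.8% were called lower in wt, 14.0% in fc2, 21.9% in flu and 19.1% in fc1. The share of all probe sets called lower in all 4 was not computed. After reference-gene scaling EXPA4 was not called in wt and fc1, nor EXPA9 in flu. Another 3 rose in both wt and fc1 at 120 min, XTH32, EXPA15 and EXPB3, and 12 were called in no genotype at that time. Of all probe sets, 11.9% were called higher in wt and 15.3% in fc1. The shares of all probe sets with these joint patterns were not computed. Of the 38 members, 8 were called in none of the 23 planned comparisons: EXPA24, EXPB2, EXPB5, XTH21, XTH26, CSLA01, CSLC12 and CSLC6. All of these except CSLC6 belong to the 13 members in the dimmest 40% of probe sets, where a change is hard to see.

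Wall genes outside the naming rule were looked up from a list of 43, of which 4 had a probe set with 1 gene. EXO, a brassinosteroid-responsive gene tied to growth, read 11.98 and 11.85 in the dark, 9.80 and 9.93 at 30 min and 9.93 and 9.82 at 120 min in wt. In fc2 it hardly moved by 30 min, from 11.72 and 11.76 to 11.58 and 11.35, and then stood at 10.93 and 10.93. Its light response in fc2 was higher than that of wt by 1.77 ± 0.14 at 30 min (adjusted p = 1.03e-05) and by 1.23 ± 0.14 at 120 min (adjusted p = 1.93e-05). In flu EXO went from 11.32 and 11.41 through 9.77 and 9.66 to 8.86 and 8.67, a response that differed from that of wt by 0.40 ± 0.14 at 30 min (adjusted p = 0.0463) and by -0.56 ± 0.14 at 120 min (adjusted p = 0.00427). The flu difference at 30 min was not called without wt dark replicate 1, flu dark replicate 1 or 2, wt 30 min replicate 1 or flu 30 min replicate 1 or 2 (0.33 to 0.46). The wall-sensing receptor kinase THE1 fell in flu at 30 min (-1.47 ± 0.19) and 120 min (-1.73 ± 0.19) and in fc2 at 120 min (-0.74 ± 0.19). COB, needed for oriented cellulose deposition, fell in flu at both times (-0.91 ± 0.11 and -0.66 ± 0.11). FER, a receptor kinase related to THE1, fell in wt, fc2 and fc1 at 120 min by -0.35 to -0.57. In flu FER fell at 30 min (-0.29 ± 0.11) and was not called at 120 min.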

How the data were processed

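Whole seedlings of 4 genotypes at 3 times of light were profiled on 24 Affymetrix arrays, 2 per group, grouped by the labels' genotype and time. The deposited values are log2 signals from RMA (background correction, normalization and probe summary), a step the submitters' processing notes name without details, and its version is not given in the sources used here, and array number rather than read depth limits the precision. No further normalization was applied. Symbols came from the platform annotation and RefSeq's gene table of Arabidopsis, used for names and neighbours only.

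A model with 1 mean per group was fitted to all 22217 probe sets over 24 arrays with limma 3.58.1 in R 4.3.3 (lmFit, contrasts.fit, eBayes), with two-sided p-values adjusted per comparison by Benjamini-Hochberg and a threshold of 0.05. It was tested on simulated data. Tables and figures used Python 3.11.15, pandas 2.3.3 and matplotlib 3.10.9. Comparisons were each genotype in light against its dark arrays, each mutant against wt, the difference between a mutant's and the wt light response, and 120 against 30 min, added after the values were seen.

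Members shown on every array were, by role, up to 3 called rises and 3 falls in wt at 120 min without overlapping arrays. The same rule took up to 3 called differences from the wt response in each direction at 120 min for each mutant. The 3 largest called differences in each direction in flu at 30 min, over all members regardless of role, were added outside the planned rule. EXLA2, EXPB1, EXPB3, EXPA4, EXPA7, EXPA8, XTH16, PME61 and EXO fell under the planned rule in part or not at all and were described after their values were seen. The members and lists were chosen with earlier results of these data known. Alternatives were each array scaled by its mean of AT4G34270 and AT2G28390 (reference genes), no probe sets from the dimmest 40%, trended and robust moderation in limma, a block for the replicate number, the seed-maturation mean as a covariate, and each array dropped in turn. The reference genes were not constant. AT2G28390 was called lower in several comparisons, and AT4G34270 was called higher in flu than in wt at 120 min (0.35 ± 0.09). A search of promoter motifs was planned and not run.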

Additional observations from a re-analysis of the deposited data

Results flagged for a closer look

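The light responses of the following genes differed between a mutant and wt by limma's test of the difference itself, which is why they are listed. Differences are mutant minus wt, on the log2 scale, ± SE (n = 2 arrays per group), and the comparisons share the wt arrays.

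In flu at 120 min XTH18 (2.06 ± 0.25), EXPA9 (1.04 ± 0.18), EXLB1 (1.02 ± 0.16), IRX15 (1.03 ± 0.23), CSLD2 (0.86 ± 0.18) and IRX15-L (0.85 ± 0.20) responded higher than in wt. XTH32 (-4.80 ± 0.25), EXPA15 (-2.31 ± 0.21), EXPA16 (-2.15 ± 0.32), ATCSLC08 (-0.96 ± 0.20), CSLC5 (-0.89 ± 0.15) and CSLC04 (-0.69 ± 0.23) responded lower. Already at 30 min XTH33 (0.92 ± 0.21), EXLB1 (0.91 ± 0.16) and IRX15 (0.89 ± 0.23) responded higher and XTH32 (-2.60 ± 0.25), EXPA4 (-1.85 ± 0.17) and EXPA16 (-1.38 ± 0.32) lower.

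In fc2 at 120 min the responses of XTH32 (-1.18 ± 0.25), EXPB1 (-1.17 ± 0.18) and EXPA15 (-0.83 ± 0.21) were lower than in wt. The response of EXO was higher by 1.77 ± 0.14 at 30 min and by 1.23 ± 0.14 at 120 min. In flu the response of EXO was 0.40 ± 0.14 above that of wt at 30 min and differed from it by -0.56 ± 0.14 at 120 min.

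In fc1 at 120 min XTH18 responded higher (1.71 ± 0.25), and EXLA2 (-1.08 ± 0.23), XTH33 (-1.0 ± 0.21) and EXLA1 (-0.81 ± 0.16) responded lower. The seed-maturation mean ranged from 5.28 to 8.83 over the fc1 arrays and from 5.50 to 8.79 over those of wt. With it as a covariate, all of these differences in fc1 were called.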

How the results depend on the processing

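With 2 arrays per group, precision is limited by array number, and 13 of the 38 members are among the dimmest 40% of probe sets. Recomputed were the changes named by rule, in wt at 120 min or in the response against wt at 120 min, and those of EXO. They kept their direction and their side of the threshold in all 180 recomputations that used every array. With 1 array left out, 207 recomputed changes did so, 29 kept their direction without being called, and 0 reversed. The member differences listed for flu at 30 min were in neither set of recomputations. With every array used, 128 recomputed counts of called members stayed within 1.5 times and 7 did not. The fc1 count in the dark against wt went from 1 to 8 with reference-gene scaling, to 2 without the dimmest 40% and to 2 with trend and robust moderation. The fc2 count at 30 min against wt went from 0 to 1 under each of these. The fc1 count at 120 min against wt went from 8 to 15 with reference-gene scaling. The cause was not tested. For same-numbered arrays, correlations of deviations from group means ran from -0.54 to 0.40 over 66 pairs of groups. The median was -0.01, and 19 pairs lay over 0.1. Some groups thus deviated together, but in no consistent direction by replicate number. With the replicate number as a block the 27 counts stayed within 1.5 times (7 in wt at 30 min, 15 in wt at 120 min and 21 in flu at 120 min). The seed-maturation covariate moved no count by over 1.5 times. OLEO3, a gene of that mean, itself fell in light at 120 min in every genotype (-1.38 in fc2 to -2.88 in flu). The covariate thus carries part of the light response. Leaving out each array in turn gave 4 to 6 called members in wt at 30 min, 0 to 3 in fc2 at 30 min and 4 to 7 in fc1 at 30 min. Against wt, it gave 0 to 2 for flu and 0 to 0 for fc1 in the dark, 0 to 1 for fc2 and 1 to 14 for fc1 at 30 min, and 4 to 5 for fc2 and 4 to 11 for fc1 at 120 min. For the differences between light responses at 120 min it gave 2 to 4 in fc2 and 1 to 3 in fc1.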
